A study of Mus musculus with 8 samples.

Results

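The integrin subunits are the 10 genes *Itgb1*, *Itga1*, *Itga3*, *Itga5*, *Itga6*, *Itgav*, *Itgb4*, *Itgb5*, *Itgb6* and *Itgb8*, rows of the deposited count table, which lists 19945 genes. They were chosen by name as integrin subunits of epithelial, endothelial and stromal cells, with earlier results of these data known. They were described by their levels in each annotated cell class of mouse pancreatic islets from vehicle-treated and FAKi-treated animals. FAKi is PF562271, a small-molecule inhibitor of focal adhesion kinase (FAK). Wild-type mice, 6 to 12 weeks old at the start, were given 50 mg/kg FAKi or vehicle by oral gavage, with 2 doses per day over 3 weeks. Islets were isolated 10 days after the last dose. Both groups therefore had a drug-free interval before the cells were taken. Islets of 5 mice, about 1200 islets, were pooled into 1 droplet-based 3′ library per condition, and the labels of the 8 samples name 4 lanes for each condition. There are thus no biological replicates, lanes and cells were not counted as replicates, and every interval below covers counting error only.

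Integrins are heterodimers of an α and a β subunit that span the plasma membrane and bind extracellular matrix or neighbouring cells. Their cytoplasmic tails recruit talin, kindlins and other adaptors, and FAK is activated where such adhesions form. The β1 subunit is shared by collagen-binding (α1β1), laminin-binding (α3β1, α6β1) and fibronectin-binding (α5β1) receptors. The β4 subunit pairs with α6 in hemidesmosomes of epithelia, and αv pairs with β5, β6 or β8 to bind vitronectin or the latent form of TGF-β. In the islet, the main laminin-rich basement membrane lies along the capillaries.

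The 10 genes have these positions on GRCm38 (mm10) in the GENCODE annotation, and all are protein coding. *Itgb6* lies at chr2:60598292-60722643 on the minus strand, and *Itga6* (chr2:71745616-71858416) and *Itgav* (chr2:83724397-83806916) lie on the plus strand of the same chromosome. *Itgb1* is at chr8:128685654-128733200 (plus). *Itga3* is at chr11:95044474-95076801 (minus) and *Itgb4* at chr11:115974709-116008412 (plus). *Itgb8* is at chr12:119158022-119238802 (minus) and *Itga1* at chr13:114953096-115101964 (minus). *Itga5* is at chr15:103344286-103366763 (minus) and *Itgb5* at chr16:33829665-33949338 (plus). Other protein-coding genes on the same strand, *Pelo* and *Gm49395*, overlap *Itga1*, so reads could be confused where the counting did not separate them, and *Gm10734* is antisense to it. *Itga5*, *Itga6*, *Itgav* and *Itgb4* also overlap other annotated genes.

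*Itga3*, *Itgb6* and *Itgb8* had their highest level in ductal cells in both libraries, and the 250 bases before their RefSeq start are printed here to show what lies at the starts of the ductal-high members. The windows are chr11:95076715-95076964, chr2:60722604-60722853 and chr12:119238277-119238526 (GRCm38.p6), all on the minus strand. *Itga3* and *Itgb6* have another listed start each, and the first in the table is shown. The RefSeq starts of these 3 genes are not the outermost GENCODE ones, so the *Itgb8* window lies inside the GENCODE gene given above, and the windows of *Itga3* and *Itgb6* overlap the first bases of theirs. Capitals mark the motifs searched on both strands: the GC box (GGGCGG), the AP-1 motif (TGANTCA) and the TEAD motif (GGAATG).
Itga3: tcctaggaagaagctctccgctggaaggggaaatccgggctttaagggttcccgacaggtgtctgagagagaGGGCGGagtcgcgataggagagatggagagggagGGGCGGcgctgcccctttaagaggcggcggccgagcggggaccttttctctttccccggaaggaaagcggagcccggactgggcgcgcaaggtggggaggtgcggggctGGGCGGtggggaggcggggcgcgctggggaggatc
Itgb6: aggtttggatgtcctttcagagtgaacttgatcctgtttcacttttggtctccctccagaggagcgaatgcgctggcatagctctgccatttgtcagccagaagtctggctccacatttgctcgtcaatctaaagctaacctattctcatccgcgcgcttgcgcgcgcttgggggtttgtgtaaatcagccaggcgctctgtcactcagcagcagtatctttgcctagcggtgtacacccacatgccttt
Itgb8: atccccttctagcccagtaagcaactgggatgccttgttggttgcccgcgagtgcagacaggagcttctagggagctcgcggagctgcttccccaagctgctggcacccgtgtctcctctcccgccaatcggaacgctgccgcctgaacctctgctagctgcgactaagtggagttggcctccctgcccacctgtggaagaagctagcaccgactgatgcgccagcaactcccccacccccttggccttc
The *Itga3* window held 3 GC boxes, a motif present in 32.7% of the 32851 promoter windows of this length. The *Itgb6* and *Itgb8* windows held none. Neither the AP-1 letters (6.75% of windows) nor the TEAD letters (12.6%) occurred in any of the 3 windows. Their GC content was 67.6%, 52% and 62.4%, against a median of 52.4%, and they held 22, 11 and 12 CpG dinucleotides against a median of 6. RefSeq windows were found for 8 of the 10 members. *Itga6* and *Itgb4* had no entry. No searched motif was common to the 3 windows.

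The vehicle library held 3776 cells and 59514118 UMIs, and the FAKi library 3183 cells and 57836783 UMIs. The labels give 8832 and 8437 cells as used for sequencing. Cell classes are those of the deposited annotation. Levels are pooled CPM, the UMIs of a gene summed over the cells of a class and library, divided by all UMIs there and scaled to a common total. Since 1 UMI stands for 1 tagged 3′ end, these levels do not scale with transcript length. Median depth per cell ran from 1140 UMIs in acinar cluster 1 to 30792.5 in β-cells, and 11 classes with at least 20 cells in each library were compared (B cells, with 9 FAKi cells, were left out). Markers of the ductal, endothelial, fibroblast, pericyte, macrophage, acinar, β- and α-cell lists were highest in the class of that name in both libraries, the acinar list in acinar cluster 2. Summed β-cell markers, at 588963 and 601495 CPM in β-cells, were also high outside them, at 157425 and 252089 CPM in acinar cluster 1 and 115125 and 119568 CPM in macrophages.

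Labels of 3 classes did not match their markers. In acinar cluster 1 the summed acinar markers, at 144566 and 114771 CPM, were below the β-cell markers in both libraries, and the class name used below is that of the annotation. The class annotated as δ-cells holds cluster 6, with somatostatin (*Sst*) at 213487 and 219821 CPM, and cluster 8, with pancreatic polypeptide (*Ppy*) at 278292 and 263888 CPM, *Sst* at 6909 and 7524 CPM, and the δ-cell factor *Hhex* at 10.6 and 7.48 CPM. The 2 clusters are therefore also given apart. In the 28 FAKi cells annotated as T cells, 5 T-cell markers summed to 120 CPM against 1604 CPM in the vehicle library, the β-cell markers reached 456346 CPM, and 12 cells had over 5% insulin UMIs. Values of this class are given with that in mind and counts also without it. Barcodes shared by the libraries numbered 4.

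*Itgb1*, the common β partner, was detected in all 11 classes and was the most abundant member in most of them. Its level was 652 CPM (95% interval 596–712) in vehicle pericytes and 556 CPM (467–657) in FAKi pericytes. Endothelial cells followed at 423 and 407 CPM, then fibroblasts at 289 and 236 CPM and ductal cells at 209 and 179 CPM. This order from pericytes to ductal cells was the same in both libraries, and in the vehicle library no intervals of these 4 classes overlapped. Macrophages had 144 and 120 CPM and the annotated δ-cells 132 and 132 CPM, with overlapping intervals. α-Cells had 102 and 88.4 CPM and β-cells 41.6 and 35.2 CPM. Cells annotated as T cells had 139 and 68.0 CPM. The acinar clusters were lowest, with 8.50 and 28.6 CPM in acinar cluster 1 and 14.0 and 11.3 CPM in acinar cluster 2, on 3 to 21 UMIs.

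**Figure D1:**
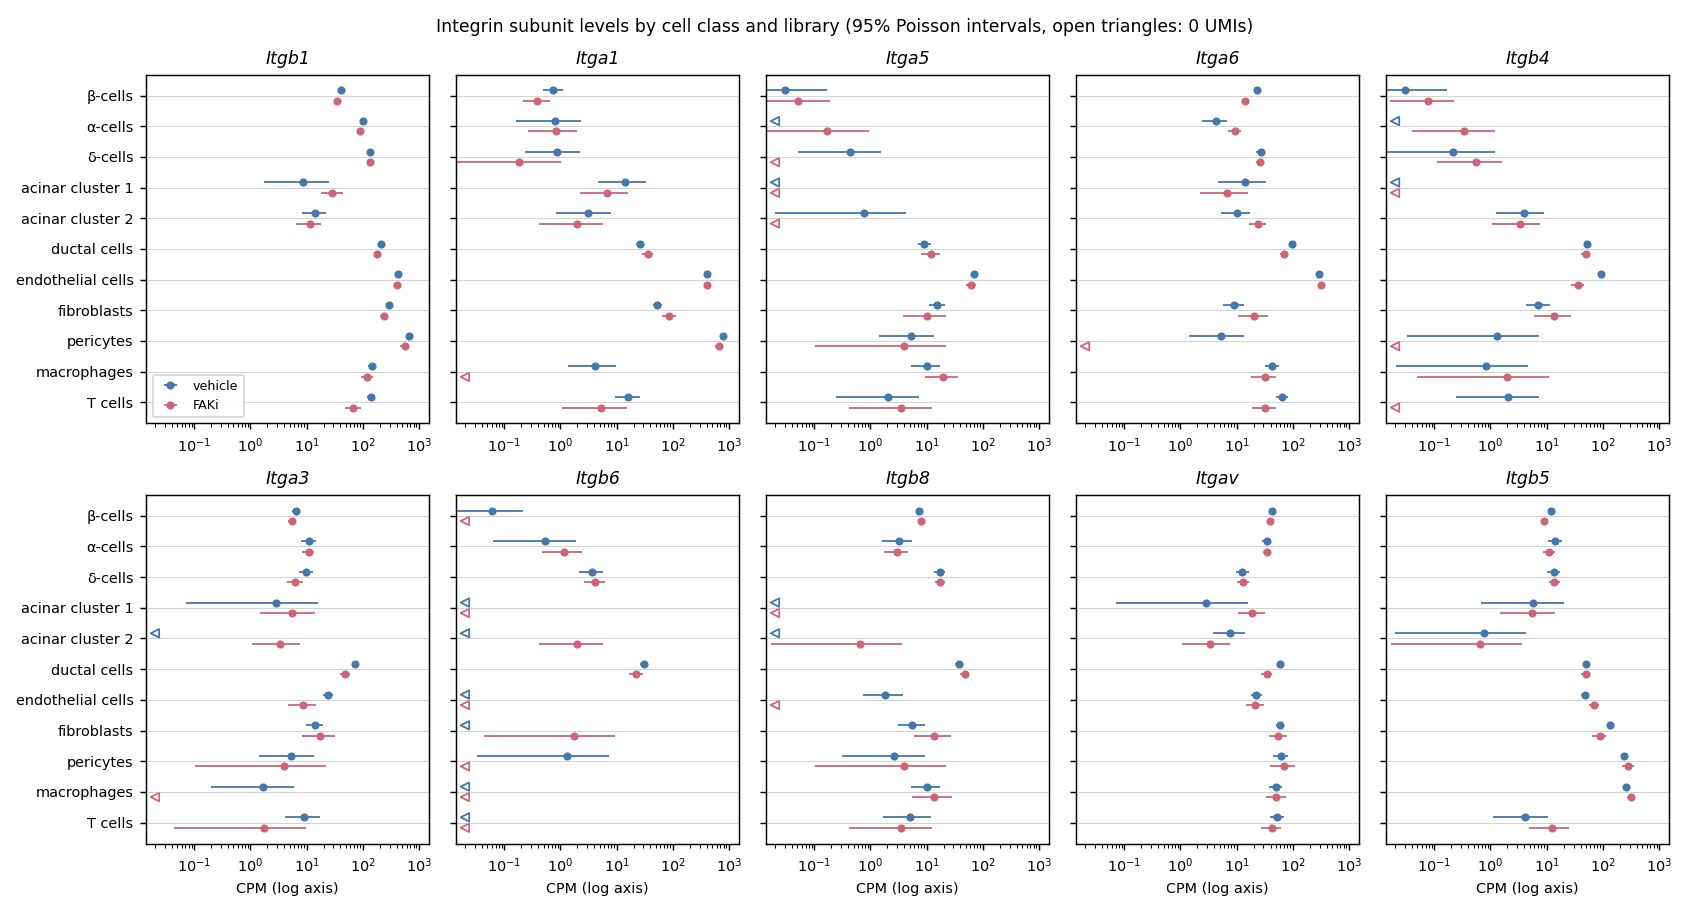
Levels of the 10 integrin subunits (CPM, log axis) in 11 cell classes, with the vehicle library in blue and the FAKi library in red. Bars are 95% Poisson intervals and open triangles at the left edge mark 0 UMIs. *Itgb1* was found in every class, while *Itga1*, *Itga5*, *Itgb4* and *Itgb6* were at or near 0 in β-cells.

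*Itga1*, the α subunit of a collagen and laminin receptor, had 773 CPM in vehicle pericytes and 665 CPM in FAKi pericytes, the highest level of any member in any class. Endothelial cells had 401 and 405 CPM. Fibroblasts were far lower, at 53.2 and 87.3 CPM, and ductal cells had 26.4 and 35.5 CPM. In β-cells it was at 0.751 and 0.391 CPM, on 25 and 15 UMIs. *Itga1* thus separated the vessel-wall classes from the endocrine ones by a wide margin in both libraries.

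*Itga6*, a laminin-binding subunit, was highest in endothelial cells, at 290 CPM (273–308) in the vehicle library and 319 CPM (291–349) in the FAKi library. Ductal cells had 96.2 and 68.6 CPM. It was low in pericytes, with 4 UMIs and 0 UMIs, which allows up to 12.1 CPM in the latter. Pericytes and endothelial cells, the classes highest in *Itga1*, therefore differed in *Itga6*. *Itga5*, the fibronectin receptor subunit, was also highest in endothelial cells, at 70.9 CPM (62.6–79.9) and 62.5 CPM (50.5–76.5). The next class was fibroblasts in the vehicle library (15.5 CPM) and macrophages in the FAKi library (19.7 CPM). β-Cells held 1 and 2 *Itga5* UMIs in all.

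*Itga3*, a laminin-binding subunit of epithelia, was at 72.7 CPM (66.1–79.7) in vehicle ductal cells and 48.3 CPM (39.5–58.5) in FAKi ductal cells. *Itgb6*, the epithelial partner of αv, was at 30.6 CPM (26.4–35.2) and 22.1 CPM (16.3–29.3) there. Endothelial cells, macrophages and T cells held 0 *Itgb6* UMIs in both libraries, which allows up to 0.793 CPM in vehicle and 2.0 CPM in FAKi endothelial cells. The annotated δ-cells were second, with 3.64 and 4.15 CPM on 17 and 23 UMIs. *Itgb8*, another αv partner, was at 37.1 CPM (32.5–42.2) and 47.4 CPM (38.7–57.5) in ductal cells, with the annotated δ-cells at 17.4 and 17.1 CPM and β-cells at 7.30 and 7.87 CPM. *Itgb6* and *Itgb8*, though both ductal-high, differed in β-cells, where *Itgb6* had 2 and 0 UMIs and *Itgb8* had 243 and 302 UMIs. *Itga3* also had an endocrine level, at 11.1 and 10.8 CPM in α-cells and 6.40 and 5.45 CPM in β-cells, so of the 3 genes whose windows are printed above *Itgb6* was the lowest there.

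*Itgb4*, the hemidesmosome subunit, was at 52.7 CPM (47.1–58.7) and 49.3 CPM (40.4–59.5) in ductal cells. In endothelial cells it was at 94.4 CPM (84.9–105) in the vehicle library and 35.9 CPM (27.0–46.9) in the FAKi library, so its highest class was not the same in the 2 libraries. The endocrine classes held at most 3 *Itgb4* UMIs each. Fibroblasts had 7.15 and 13.7 CPM, on 18 and 8 UMIs.

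*Itgb5*, a vitronectin-binding partner of αv, was highest in macrophages, at 254 CPM (227–284) and 311 CPM (264–363). Pericytes were close, at 241 CPM (208–279) and 278 CPM (216–352), and the 2 classes did not differ beyond their intervals. Fibroblasts had 132 and 87.3 CPM, endothelial cells 47.3 and 69.2 CPM and ductal cells 50.6 and 49.3 CPM. *Itgav*, the partner of β5, β6 and β8, was spread over many classes. Pericytes were at 61.3 CPM (45.0–81.5) and 68.5 CPM (39.9–110), fibroblasts at 60.0 and 54.8 CPM, macrophages at 49.2 and 51.1 CPM and β-cells at 42.2 and 38.8 CPM. Ductal cells were at 57.9 CPM (52.1–64.2) and 34.5 CPM (27.2–43.3), and cells annotated as T cells at 52.7 and 41.9 CPM. The intervals of pericytes, fibroblasts and macrophages overlapped in both libraries, so no order among them can be read. Those of pericytes and ductal cells also overlapped in both libraries.

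By highest class, 3 of 10 members (*Itga3*, *Itgb6*, *Itgb8*) were ductal in both libraries, against 16.7% of the 14092 genes with at least 100 UMIs. Pericytes were the highest class for 3 members (*Itgb1*, *Itga1*, *Itgav*), against 8.65% of genes. *Itgav* was no longer highest there in 7 of the 8 alternatives that recompute the levels. Endothelial cells were highest for 2 (*Itga5*, *Itga6*), against 10.4%, and macrophages for 1 (*Itgb5*), against 4.33%. No member was highest in fibroblasts, against 4.14% of genes. The same class came first in both libraries for 9 of the 10 members, the exception being *Itgb4*, and for 58.1% of all genes counted. The members held from 296 to 11002 UMIs each and were not matched in depth to those genes. *Itgb8* lost its first class at either thinning depth, and *Itgb5* in cells under 5% mitochondrial counts or thinned to 1000 UMIs. The members were chosen as integrin subunits of epithelial, endothelial and stromal cells, so their counts in such classes cannot be set apart from that choice. The shares of all genes are given for scale only, and no difference from other genes was tested.

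The level of *Itgav* depended on the denominator. Hormone and other very abundant transcripts filled much of the endocrine total: the 20 genes with most UMIs over all cells, among them *Ins1*, *Ins2*, *Gcg*, *Sst* and *Ppy*, took 64.6% and 65.7% of β-cell UMIs and 42.2% and 40.3% of α-cell UMIs, but 10.9% and 13.5% in ductal cells. Without these 20 genes in the total, *Itgav* was at 119 and 113 CPM in β-cells, against 71.2 and 81.6 CPM in pericytes, and β-cells became its highest class in both libraries. α-Cells were then at 59.4 and 57.4 CPM and the annotated δ-cells at 22.8 and 23.9 CPM. *Itgb1* stayed highest in pericytes (758 and 662 CPM) with β-cells at 117 and 103 CPM on this scale. Its level in the annotated δ-cells was then 238 and 242 CPM, above macrophages (176 and 150 CPM) and above ductal cells (235 and 206 CPM), with overlapping intervals for δ- and ductal cells in both libraries.

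**Figure D2:**
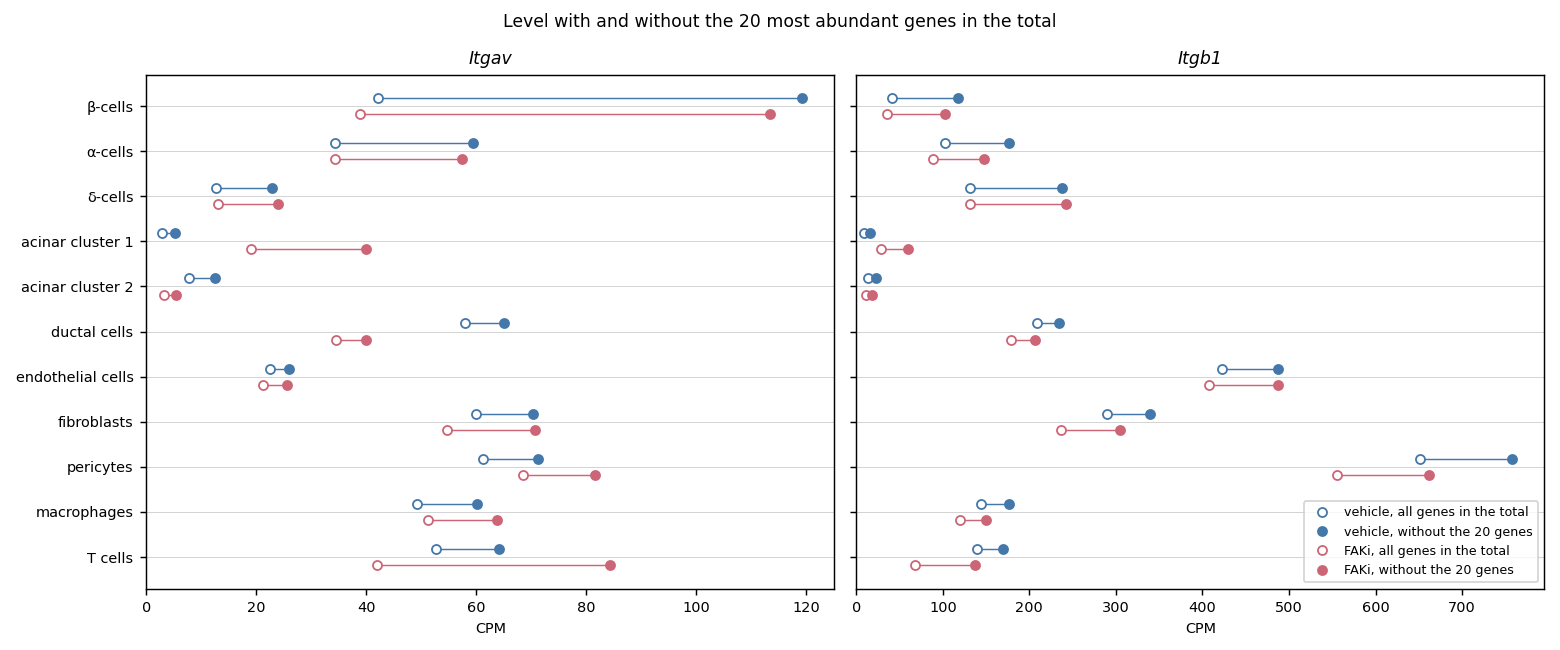
*Itgav* and *Itgb1* levels (CPM, linear axis from 0) by class, with all genes in the total (open circles) and without the 20 most abundant genes (filled circles), for the vehicle (blue) and FAKi (red) libraries. The β-cell value of *Itgav* moved from 42.2 to 119 CPM in the vehicle library, past every other class.

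Among endocrine classes, the subunits did not rank alike. *Itgav* was higher in β-cells than in the annotated δ-cells, with a δ to β ratio of 0.300 (0.227–0.389) for vehicle and 0.335 (0.260–0.424) for FAKi, and 0.191 and 0.211 without the 20 genes. *Itgb1* ran the other way, with ratios of 3.18 (2.88–3.5) and 3.74 (3.41–4.09), and 2.02 and 2.35 without the 20 genes. For *Itgb8* the ratios were 2.38 and 2.18, and 1.52 and 1.37 without the 20 genes. *Itga6* was 5.53-fold higher in β- than α-cells in the vehicle library (3.38–9.73) and 1.54-fold higher in the FAKi library (1.17–2.07), and 9.03 and 2.69 without the 20 genes. Between β-cell cluster 0 and α-cell cluster 5 the ratio was 14.1 (6.01–43.7) and 2.71 (1.78–4.33). The direction of each of these ratios was the same in both libraries and with either denominator. For *Itga6* between δ- and β-cells, the vehicle ratio was 1.14 (0.934–1.38) with and 0.725 (0.595–0.878) without the 20 genes, and the FAKi ratio was 1.87 (1.55–2.25) with and 1.18 (0.973–1.41) without them. The annotated δ class mixes 2 clusters, and between β-cell cluster 0 and the *Sst*-rich cluster 6 the β to δ ratio was 0.622 (0.497–0.786) for vehicle and 0.320 (0.258–0.398) for FAKi, and 1.19 (0.951–1.51) and 0.623 (0.504–0.776) without the 20 genes.

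The split of the annotated δ class mattered for these genes. In the *Sst*-rich cluster 6, *Itga6* was at 39.0 and 44.7 CPM, *Itgb8* at 30.8 and 30.4 CPM and *Itgb6* at 6.94 and 6.54 CPM. In the *Ppy*-rich cluster 8, they were at 14.4 and 10.2 CPM, 4.23 and 5.44 CPM, and 0.423 and 2.04 CPM. The cluster 6 to cluster 8 ratio of *Itgb8* was 7.28 (3.74–15.8) and 5.59 (3.24–10.3), and that of *Itga6* was 2.71 (1.81–4.15) and 4.38 (2.91–6.78). Without the 20 genes they were 4.85 and 3.74 for *Itgb8* and 1.81 and 2.93 for *Itga6*. *Itgb1* was nearer, at 160 and 153 CPM against 105 and 113 CPM, and its ratio of 1.53 and 1.36 became 1.02 and 0.910 without the 20 genes. Among the endocrine clusters *Itga6* was lowest in α-cell cluster 5, at 1.72 and 5.27 CPM. Cluster 6 thus held 90 of the 124 *Itga6* UMIs and 71 of the 81 *Itgb8* UMIs of the class in the vehicle library. These clusters were drawn on the expression of all genes, so the differences between them are descriptions.

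**Figure D3:**
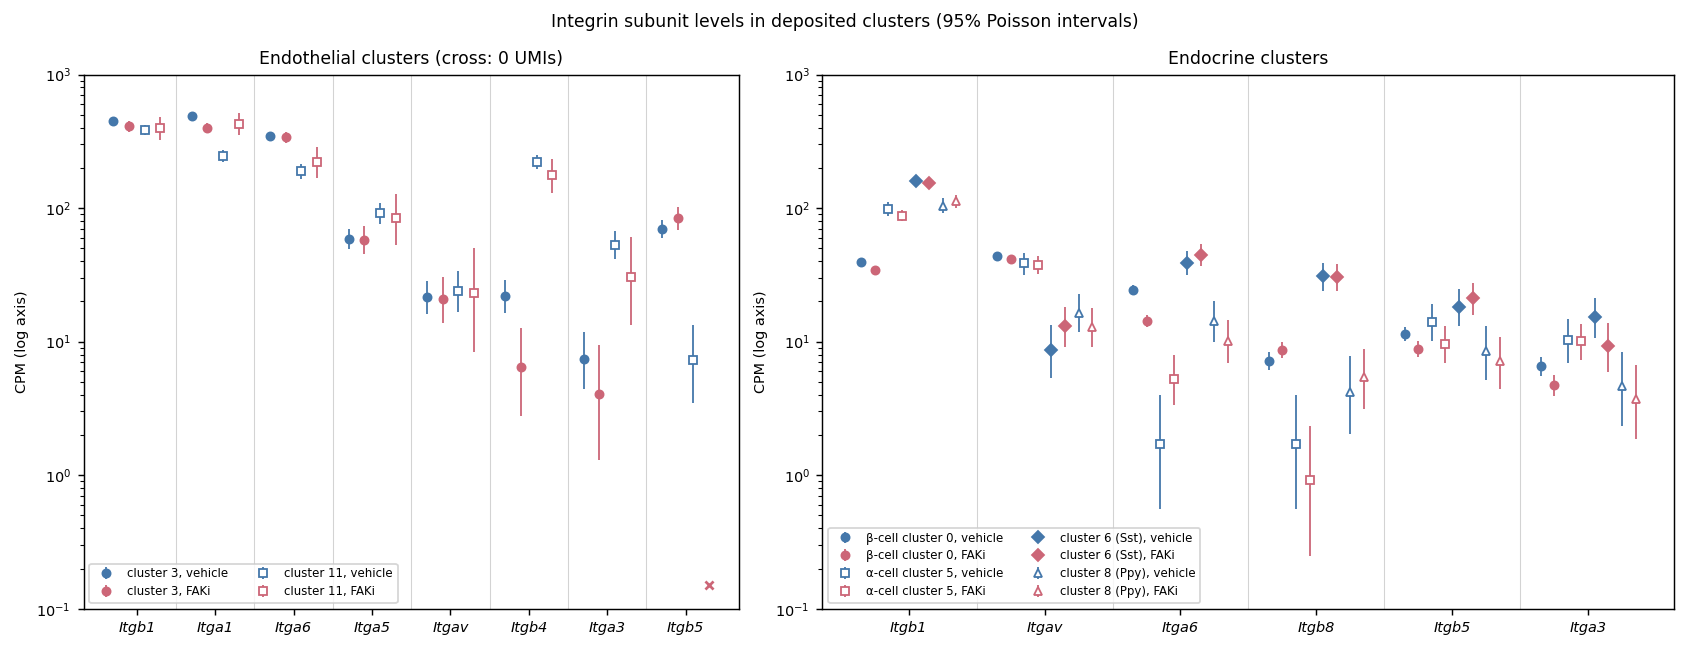
Levels (CPM, log axis, 95% Poisson intervals) in the 2 endothelial clusters (left) and in 4 endocrine clusters (right), with vehicle in blue and FAKi in red. *Itgb4* and *Itga3* were higher in endothelial cluster 11 and *Itgb5* in cluster 3, and *Itgb8* was highest in the *Sst*-rich cluster 6.

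Endothelial cells also fell into 2 deposited clusters with different subunits. Cluster 11 had *Itgb4* at 222 and 176 CPM and cluster 3 at 22 and 6.44 CPM, a ratio of 10.1 (7.50–13.8) for vehicle and 27.3 (12.8–67.1) for FAKi. *Itga3* followed, at 53.2 and 30.6 CPM against 7.47 and 4.03 CPM. *Itgb5* went the other way, at 7.29 and 0 CPM in cluster 11 against 70.1 and 83.8 CPM in cluster 3. *Itga6* was lower in cluster 11, with ratios of 0.543 and 0.653. *Itga1* was at 246 against 490 CPM in the vehicle library, a ratio of 0.502 (0.443–0.567), and at 429 against 400 CPM in the FAKi library, a ratio of 1.07 (0.865–1.32). Summed endothelial markers were 5552 and 5727 CPM in cluster 11 and 12900 and 11958 CPM in cluster 3, and summed ductal markers were at most 85.3 CPM in either cluster. Summed fibroblast markers were 313 and 3.83 CPM in cluster 11 and 16.2 and 4.03 CPM in cluster 3, and their part in these levels was not tested.

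The leading subunit differed among classes. In β-cells *Itgav* supplied 31.6% and 35.0% of the UMIs of the 10 genes and *Itgb1* 31.1% and 31.7%. In the annotated δ-cells *Itgb1* alone supplied 60.9% and 61.8%, and in α-cells 59.9% and 55.5%. *Itga1* was the leading member in pericytes (44.2% and 42.1%) and *Itgb5* in macrophages (49.1% and 56.6%). The 10 genes summed to 1748 and 1579 CPM in pericytes, 1375 and 1329 CPM in endothelial cells, 642 and 546 CPM in ductal cells, 133 and 111 CPM in β-cells and 40.4 and 50.4 CPM in acinar cluster 2. The pericyte sum was 13.1 and 14.2 times that of β-cells, and 5.39 and 5.80 times without the 20 most abundant genes in the total.

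**Figure D4:**
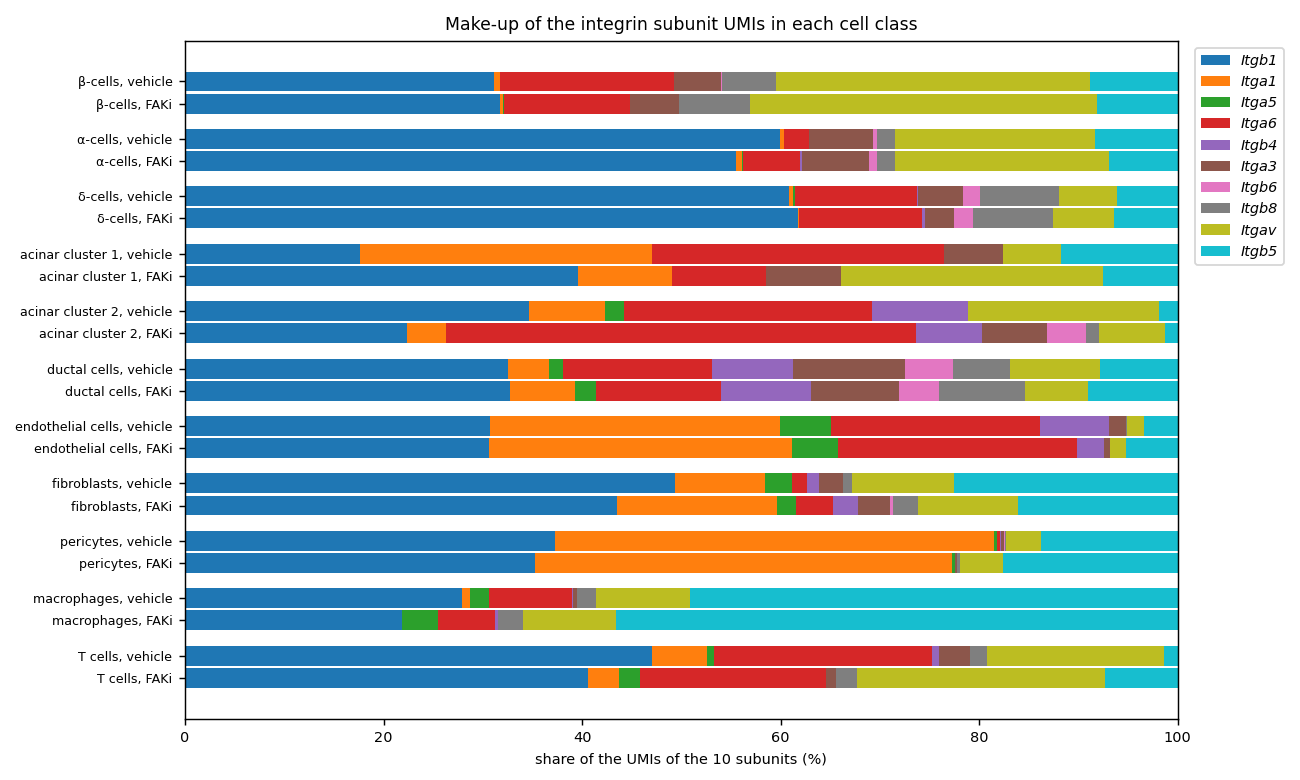
Share (%) of the UMIs of the 10 subunits that each subunit supplied, by class and library. *Itgav* supplied 31.6% and 35.0% in β-cells and *Itga1* 44.2% and 42.1% in pericytes, and the acinar bars rest on 17 to 76 UMIs.

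Shares of cells with a UMI followed depth, so each cell was also thinned to 3000 UMIs, leaving out shallower cells. *Itgb1* was found in 64.8% of vehicle β-cells before thinning and in 13.1% (11.1–15.3) of 1034 cells after it. The FAKi values were 57.2% and 10.6% (8.97–12.4) of 1273 cells. Ductal cells had *Itgb1* in 49.0% and 39.2% of thinned cells, endothelial cells in 72.2% and 69.3%, and pericytes in 81.7% and 67.6%. *Itga1*, at 60.9% and 67.8% of thinned endothelial cells, was in 0.290% and 0.157% of thinned β-cells. *Itgav* was in 10.1% and 11.9% of thinned β-cells, and its share from free RNA was not measured. *Itgb6* was in 8.82% and 10.1% of thinned ductal cells.

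Some of the known partners are given here, in some classes, and these were found together about as often as their single shares give. *Itga1* and *Itgb1* were both present in 46.4% (41.7–51.1) of thinned vehicle endothelial cells, against a product of the single shares of 44.0%, and in 48.2% against 47.0% in the FAKi library. In pericytes the pair was in 69.6% against 67.5%, and 51.4% against 49.3%. *Itga6* and *Itgb1* were both in 40.2% of vehicle endothelial cells against 39.5%, and *Itga6* and *Itgb4* in 10.8% against 11.1%. Endothelial values pool clusters 3 and 11, which differ in *Itga6* and *Itgb4*, so nearness to the product does not show independence. *Itgav* and *Itgb6* were both in 2.37% (1.19–4.19) of vehicle ductal cells against 1.5%. The intervals printed here hold the product. Transcripts in 1 cell do not show that the proteins pair.

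The comparison of FAKi-treated with vehicle-treated islets covered 110 pairs of member and class, of which 62 had at least 20 UMIs in both libraries together. The ratio of FAKi to vehicle CPM was within 1.5-fold for 43 of the 62 and at least 2-fold apart for 9, of which 5 were higher and 4 lower in the FAKi library. Over all genes, 8.83% of 95421 such pairs were at least 2-fold apart. Without the T cells, the count was 7 of 59, against 6.56% of all such pairs. No counted member was 2-fold apart in ductal cells (10 counted), pericytes (4), macrophages (5), β-cells (7) or the annotated δ-cells (7). In these classes, 2.35%, 3.0%, 2.87%, 1.24% and 1.21% of all genes were at least 2-fold higher and 3.42%, 6.69%, 9.04%, 2.38% and 1.77% at least 2-fold lower. With 1 library per condition, no ratio has a replicate check.

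**Figure D5:**
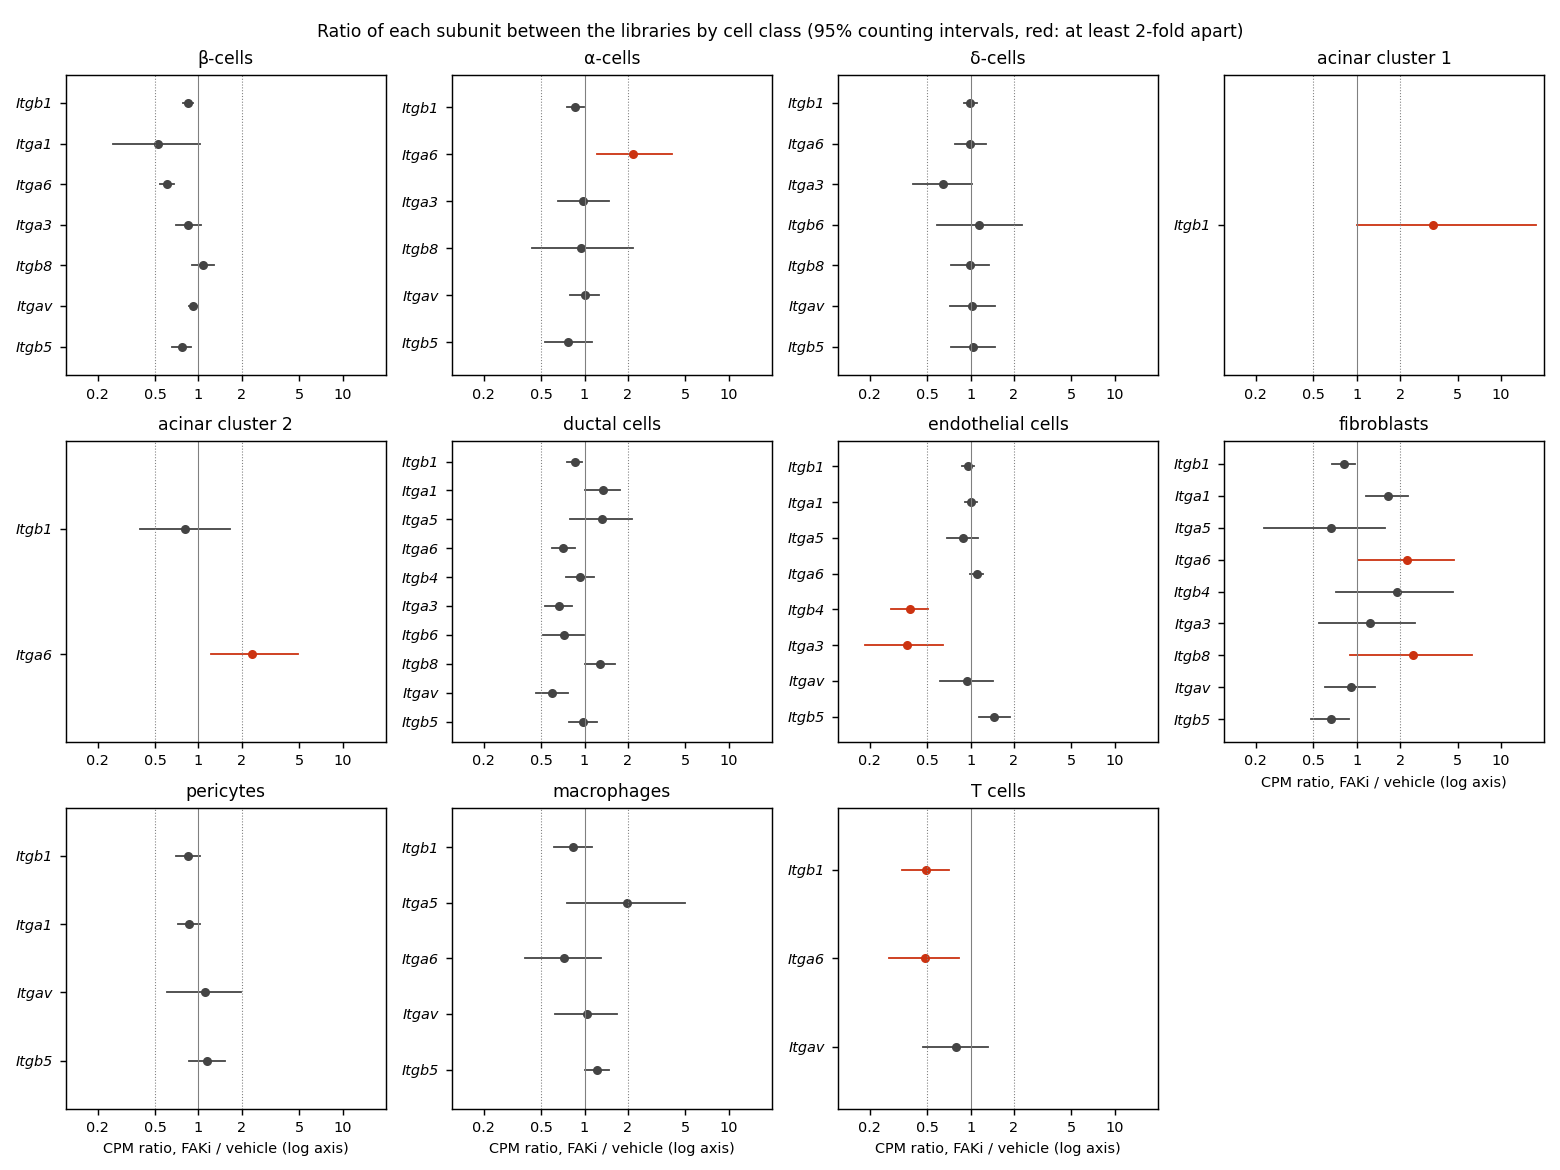
Ratio of FAKi to vehicle CPM (log axis) for each subunit with at least 20 UMIs in a class, with 95% counting intervals. Red marks the 9 ratios at least 2-fold apart, and dotted lines mark 0.5 and 2.

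In endothelial cells, *Itgb4* was at 0.381 of its vehicle level (0.280–0.508, 357 and 54 UMIs) and *Itga3* at 0.359 (0.184–0.646, 91 and 13 UMIs), 2 of 8 members counted, where 4.86% of genes were at least 2-fold lower. The cells of cluster 11, where both genes were high, were 172 of 543 endothelial cells in the vehicle library and 40 of 269 in the FAKi library. Within cluster 11 the *Itgb4* ratio was 0.795 (0.570–1.09), and within cluster 3 it was 0.293 (0.120–0.620, 53 and 8 UMIs), where 3.2% of genes were at least 2-fold lower. For *Itga3* the ratios were 0.576 (0.240–1.20) and 0.539 (0.156–1.51). For *Itga1* they were 1.75 (1.40–2.17) in cluster 11 and 0.817 (0.735–0.909) in cluster 3, beside 1.0 (0.918–1.11) over all endothelial cells, so the pooled ratio joined clusters with opposite directions. *Itgb5*, higher in cluster 3, had a ratio of 1.46 (1.14–1.87) over all endothelial cells, 1.19 (0.926–1.53) within cluster 3, and 10 and 0 UMIs in cluster 11. The other 5 members counted, *Itgb1*, *Itga1*, *Itga5*, *Itga6* and *Itgav*, had ratios from 0.883 to 1.10. Summed fibroblast markers were 124 CPM in vehicle and 3.99 CPM in FAKi endothelial cells and summed ductal markers 69.5 and 47.2 CPM. Summed α-cell markers there were 912 and 6137 CPM and β-cell markers 54506 and 80323 CPM, the latter 44470 and 5865 CPM in cluster 11 and 60221 and 95986 CPM in cluster 3. Their part in these ratios was not tested.

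*Itga6* ratios lay on both sides of 1 among classes. In β-cells it was at 0.604 of the vehicle level (0.540–0.675), from 23.3 CPM (21.7–25.0) to 14.1 CPM (12.9–15.3). Within β-cell clusters 0, 1 and 10 the ratios were 0.588 (0.513–0.674), 0.606 (0.465–0.788) and 0.841 (0.620–1.14). In α-cells it was 2.17 (1.22–4.05), from 16 to 55 UMIs, where 2.21% of genes were at least 2-fold higher. The α-cell ratio was 3.06 (1.14–10.3) in cluster 5, where 2.3% of genes were at least 2-fold higher, and 1.56 (0.767–3.43) in cluster 9. Summed endothelial markers in α-cells were 2.11 CPM in the vehicle library and 17.6 CPM in the FAKi library. They were 2.06 and 3.21 CPM in cluster 5, where *Itga6* had 5 and 23 UMIs, and 2.26 and 55.9 CPM in cluster 9. Summed markers of PP cells, *Ppy* and *Pyy*, were 85522 and 34319 CPM in α-cells. Cluster 9 also held *Sst* at 58406 and 45730 CPM and acinar markers at 11219 and 10740 CPM. The part of these transcripts was not tested. In the annotated δ-cells the *Itga6* ratio was 0.992 (0.776–1.27), and in endothelial cells 1.10 (0.987–1.23).

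The acinar clusters gave few UMIs. *Itgb1* in acinar cluster 1 had 3 and 21 UMIs, a ratio of 3.36 with an interval from 1.00 to 17.6, where 8.68% of genes were at least 2-fold higher. In that cluster the median insulin share of UMIs was 11.1% and 22.2%. Summed α-cell markers there were 2987 and 10071 CPM and δ-cell markers 1323 and 2651 CPM. The part of these transcripts was not tested. In acinar cluster 2 the *Itgb1* ratio was 0.807 (0.391–1.66). *Itga6* there had 13 and 36 UMIs, a ratio of 2.37 (1.23–4.86), where 5.78% of genes were at least 2-fold higher. Summed proliferation markers, *Mki67* and *Top2a*, were 0.776 and 19.2 CPM in acinar cluster 2, and their part was not tested. Ductal cells exceeded acinar cluster 2 in *Itgb1* by 15-fold (9.42–25.3) and 15.8-fold (9.77–27.5). The gap was smaller without the 20 most abundant genes in the total, at 235 and 206 CPM in ductal cells against 22.7 and 18.6 CPM.

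In ductal cells all 10 members could be counted, and ratios ran from 0.596 for *Itgav* (0.458–0.766) to 1.34 for *Itga1* (1.0–1.77). *Itga3* was at 0.665 (0.533–0.824) and *Itga6* at 0.713 (0.592–0.855), while *Itgb8* was at 1.28 (1.00–1.62). With cells thinned to 1000 UMIs *Itga1* turned to 0.639 and *Itga3* was at 0.290, and *Itgav* was at 0.314 with cells thinned to 3000 UMIs. The median log2 ratio of the 10 was -0.16, against 0.01 over all genes of the class. In the same cells the summed ductal markers were 7366 and 6295 CPM, β-cell markers 24094 and 53723 CPM and acinar markers 1696 and 3431 CPM. Endothelial markers were 29.1 and 2.30 CPM, pericyte markers 120 and 56.2 CPM and fibroblast markers 12.2 and 0.460 CPM. The part of these transcripts was not tested.

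In fibroblasts, of which the FAKi library held 63, *Itga6* (2.25, 1.02–4.71) and *Itgb8* (2.46, 0.895–6.29) were 2-fold higher, 2 of 9 members against 4.03% of genes, on 12 and 8 FAKi UMIs. *Itga1* was at 1.64 (1.16–2.28) and *Itgb5* at 0.660 (0.481–0.888). With cells thinned to 1000 UMIs they were at 3.07 and 1.24, so the direction of *Itgb5* turned. *Itga6* fell short of 2-fold, at 1.17, in cells under 5% mitochondrial counts, and was at 6.34 with cells thinned to 1000 UMIs. *Itgb8* was at 1.39 as a mean over single cells and at 0 with cells thinned to 1000 UMIs. Summed fibroblast markers in this class were 27051 and 18294 CPM, β-cell markers 66738 and 132989 CPM, acinar markers 1406 and 6839 CPM and Schwann cell markers 52.8 and 241 CPM. The δ-cell markers were 741 and 2240 CPM and the ductal markers 102 and 144 CPM. The part of these transcripts was not tested. In pericytes and macrophages the ratios of the members counted lay between 0.726 and 1.97. T-cell ratios of *Itgb1* (0.490, 0.334–0.703) and *Itga6* (0.484, 0.270–0.827) rest on the 28 FAKi cells with few T-cell markers, and 27.6% of genes were at least 2-fold lower there.

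Other genes of integrin adhesion were counted from 3 lists. Of 17 other integrin subunits 16 were in the table, 13 of them with at least 100 UMIs. Of those counted, 0 of 5 in β-cells, 0 of 2 in α-cells, 0 of 4 in ductal cells, 0 of 4 in endothelial cells and 0 of 4 in pericytes were 2-fold apart, and 2 of 8 were lower in macrophages, where 9.04% of genes were (*Itgb2*, 0.496, and *Itgb7*, 0.329, both chosen after their values were seen). The median log2 ratio of those counted was 0.86 in β-cells, against -0.055 over all genes there, and -0.59 in macrophages, against -0.10. The 5 in β-cells had ratios from 0.889 to 1.88. In macrophages B-cell markers were at 77.5 and 15.7 CPM, T-cell markers at 12.5 and 0 CPM, proliferation markers at 78.4 and 15.7 CPM, acinar markers at 1468 and 9860 CPM and δ-cell markers at 143 and 3186 CPM, and their part was not tested. *Itgb7* was highest in the cells annotated as T cells. In fibroblasts 2 of 6 were higher, against 4.03% of genes, namely *Itga2* (3.69, 1.56–8.60) and *Itga4* (2.01, 0.694–5.24). There 3 of 6 were lower, against 7.83% of genes, namely *Itga7* (0.410, 0.0466–1.68), *Itga8* (0.341, 0.208–0.533), a mesenchymal subunit, and *Itga9* (0.308, 0.0610–0.963). Of 19 adaptors and kinases, all with at least 100 UMIs, 1 of 16 was 2-fold lower in endothelial cells, against 4.86% of genes (*Ptk2b*, the FAK-related kinase Pyk2, 0.429, 0.230–0.747). None of 17 was 2-fold apart in ductal cells or in β-cells. In fibroblasts 1 of 15 was higher (*Lims2*, 2.46, 1.35–4.38), and in acinar cluster 2, where 2.83% of genes were lower, 1 of 2 was lower (*Parva*, 0.285, 0.0810–0.825). In the annotated δ-cells 1 of 16 was higher, against 1.21% of genes (*Fermt1*, named after its values were seen, 2.48, 1.41–4.58). *Ptk2*, the gene of FAK itself, named after its values were seen, was highest in pericytes, at 179 and 189 CPM. The kindlins, named in the same way, differed in their highest class: *Fermt1* was highest in ductal cells (121 and 89.8 CPM), *Fermt2* in pericytes (343 and 399 CPM) and *Fermt3* in macrophages (148 and 193 CPM). Of 24 ligands, 4 of 16 counted were 2-fold lower in endothelial cells, against 4.86% of genes: *Col1a1* (0.0514), *Col1a2* (0.0403), *Spp1* (0.470) and *Npnt* (0.331). *Col1a1* and *Col1a2* are also in the fibroblast marker list, which was at 124 and 3.99 CPM in these cells, and its part was not tested. In fibroblasts *Vtn* was higher (2.42) and *Fn1* (0.256), *Spp1* (0.118), *Tnc* (0.425) and *Lamc3* (0.485) were lower, of 18 counted. In α-cells *Col4a2* was higher (6.94, 1.71–60.9, 2 and 22 UMIs) and *Mfge8* lower (0.496), of 12, where 2.21% of genes were higher and 1.27% lower. Summed endothelial markers in α-cells were 2.11 and 17.6 CPM, and their part was not tested. In acinar cluster 2 both ligands counted, *Vtn* (0.483) and *Spp1* (0.356), were lower. Summed pericyte markers there were 10.9 and 3.32 CPM, fibroblast markers 19.4 and 5.97 CPM and ductal markers 106 and 117 CPM. Their part in these ratios and in that of *Parva* was not tested. Among the ligands lower in other classes, also chosen after their values were seen, were 3 of 11 in β-cells (*Col4a2*, 0.385, *Vtn*, 0.350, and *Mfge8*, 0.402) and 2 of 19 in pericytes (*Spp1*, 0.233, and *Tnc*, 0.140). There were also 1 of 18 in ductal cells (*Col1a2*, 24 and 1 UMIs) and 1 of 4 in macrophages (*Col4a1*, 19 and 3 UMIs). The shares of all genes 2-fold lower in these classes are those given above. Markers of other classes were also lower: in β-cells the summed pericyte markers were 5.23 and 1.15 CPM, fibroblast markers 4.60 and 1.88 CPM and endothelial markers 3.16 and 1.72 CPM. In ductal cells the fibroblast markers, which include *Col1a2*, were 12.2 and 0.460 CPM, and in macrophages the pericyte markers were 103 and 3.93 CPM and the endothelial markers 24.2 and 9.83 CPM. Pericytes had fibroblast markers at 6043 and 4156 CPM. Over all cell classes *Vtn* and *Mfge8* were highest in pericytes. The part of these transcripts in the ligand ratios was not tested. In the cells annotated as T cells 5 of 6 other subunits (*Itga4*, *Itgal*, *Itgam*, *Itgb2* and *Itgb7*), 7 of 13 adaptors and 5 of 7 ligands (*Lamb3*, *Col1a2*, *Spp1*, *Tgfb1* and *Mfge8*) were lower, against 27.6% of genes. There 2 adaptors (*Parva* and *Fermt2*) were higher, against 8.09% of genes. By the same later choice, osteopontin (*Spp1*), a ligand of αv integrins, was highest in ductal cells, at 10644 and 11802 CPM, and the basement membrane collagens *Col4a1* (1948 and 1922 CPM) and *Col4a2* (1139 and 1081 CPM) in endothelial cells.

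Across the 22 points of 11 classes in 2 libraries, the genes most like each member in log2(CPM + 1) were listed by Pearson's r, as a description, since the 2 libraries of a class share its identity. *Itgb1* was closest to *Lmna* (0.976), the lamin A/C gene, *Capn2* (0.964) and *Dctn4* (0.964). *Itga1* was closest to *Col4a2* (0.963), *C2cd2* (0.963) and *Cavin3* (0.955). *Itga5* was closest to *Piezo1* (0.95), a mechanically gated channel, *Dab2* (0.946) and *Trim47* (0.946). *Itgb5* was closest to *Rap2a* (0.963), *Blvrb* (0.933) and *Lamp1* (0.918), and *Itgb6* to *Cblc* (0.922), *Smoc1* (0.914) and *Erich5* (0.913). *Itgb4* was closest to *Megf6* (0.936), *Mmp15* (0.927) and *Ces2g* (0.927), and *Itgav* to *Akt2* (0.899), *Siva1* (0.886) and *Ipo9* (0.883). *Itga3* (*Ptpn21*, *Bend5* and *Cyp2j6*), *Itga6* (*Prkch*, *Sigirr* and *Cmtm8*) and *Itgb8* (*5430403G16Rik*, *Slc22a4* and *Marveld2*) had looser matches, with r from 0.830 to 0.882.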

How the data were processed

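Islet cells of 2 libraries, vehicle and FAKi, were profiled with 10x Genomics 3′ chemistry. The authors counted UMIs with Cell Ranger on mm10, and the deposited table holds raw counts per gene and cell that were not normalized. The authors removed cells by detected genes and by mitochondrial share with Seurat 3.1, and the deposited percent of mitochondrial counts was used only as a filter here. The deposited clusters and cell types were made by the authors.

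UMIs were summed per class and library and scaled to CPM. Levels carry exact Poisson, shares Clopper-Pearson and ratios exact conditional binomial intervals at 95%. No p-values are given, since there is 1 library per condition. Ratios needed at least 20 UMIs in both libraries together, and highest classes 100 UMIs over all cells. Log2 ratios carry no pseudocount, and correlations used log2(CPM + 1). A count of 0 was read as allowing up to 3 UMIs. Doublets were called with scrublet (68 and 57 cells) and kept, except in an alternative. The members and lists were chosen with earlier results of these data known. Members are all named. Listed genes with at least 100 UMIs could be named where at least 2-fold apart in a class in which a member is, or as said in the text, and the 3 genes with the highest r are named per member. A result of 1 listed gene is not reported here.

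Alternatives were averaging CPM over single cells, removing the 20 most abundant genes from the total, filters on doublets, mitochondrial share (5%), detected genes (1000), UMIs and insulin share (5%), and thinning to 3000 or 1000 UMIs. Leaving out T cells, ratios within deposited clusters and endocrine ratios without the 20 genes were added after seeing the data. The intervals were tested on simulated counts of ductal and endothelial cells and covered the true ratio for 97% and 95% of 200 changed genes. These counts were independent Poisson draws, which the intervals assume, so the simulation checks the computation only. Differences among cells or clusters of a class were not simulated. Positions came from GENCODE and upstream windows from RefSeq (GRCm38.p6). The software was scanpy 1.11.5, matplotlib 3.10.9, pandas 2.3.3, scipy 1.17.1 and numpy 2.4.6 under Python 3.11.15, with seed 0.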

Additional observations from a re-analysis of the deposited data

Results flagged for a closer look

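*Itga6* ratios of FAKi to vehicle CPM pointed in opposite directions in different classes. The ratio was 0.604 in β-cells and 0.484 in the cells annotated as T cells, but 2.17 in α-cells, 2.37 in acinar cluster 2 and 2.25 in fibroblasts, each with a counting interval that leaves out 1. Over the processing alternatives it ran from 0.521 to 0.805 in β-cells, 0 to 1.19 in the T cells, 1.25 to 3.59 in α-cells, 1.64 to 3.03 in acinar cluster 2 and 1.17 to 6.34 in fibroblasts, so the T-cell direction turned. *Itgb1* ratios were 3.36 in acinar cluster 1 and 0.490 in the T cells. The difference between classes was not tested, because each condition has 1 library. The T-cell values rest on 28 FAKi cells with few T-cell markers, and the acinar values on 24 and 49 UMIs in both libraries together.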

How the results depend on the processing

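The count of 9 member and class pairs at least 2-fold apart became 21 with at least 5 UMIs, 3 with at least 100 UMIs, 19 at 1.5-fold, and 16 and 17 with cells thinned to 3000 and 1000 UMIs, where fewer UMIs remain. Under the other alternatives it lay between 7 and 10. Members highest in fibroblasts numbered 1 (*Itgav*) instead of 0 at either thinning depth, and *Itgb8* was then no longer highest in ductal cells in both libraries. *Itgav* kept pericytes as its highest class in both libraries under the filter on detected genes alone among the 8 recomputed levels, and without the 20 most abundant genes it was highest in β-cells. *Itgb5* was no longer highest in macrophages in both libraries with cells under 5% mitochondrial counts or thinned to 1000 UMIs. The *Itga6* ratio in T cells turned to 1.19 in cells under 5% mitochondrial counts, and the *Itgb8* ratio in fibroblasts to 0 with cells thinned to 1000 UMIs. The cause was not tested. Of the 62 ratios, 33 moved by over 1.5 times under at least 1 alternative, and 8 did so without the thinnings. Of the 19 ratios at least 1.5-fold apart, 4 crossed 1, namely *Itga6* in T cells and, when thinned, *Itga5*, *Itgb5* and *Itgb8* in fibroblasts. For 4 ratios, 2 at each thinning depth, no value was left because the vehicle library then held 0 UMIs. The *Itgb4* ratio in endothelial cells ranged from 0.297 to 0.471, that of *Itga3* from 0.140 to 0.398, that of *Itga6* from 1.25 to 3.59 in α-cells, 1.64 to 3.03 in acinar cluster 2, 1.17 to 6.34 in fibroblasts and 0 to 1.19 in T cells, that of *Itgb8* from 0 to 2.71 in fibroblasts, and that of *Itgb1* from 1.62 to 4.47 in acinar cluster 1 and 0 to 0.810 in T cells. No paired analysis was possible because the numbers in the labels are lanes of 1 library per condition and no result comes from a test. Depth limits the acinar clusters, with 17 to 76 UMIs of all members.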
